A study of Mus musculus with 42 samples.

Results

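The subject of this report is a set of 9 genes of the TGF-beta pathway, followed through the late reprogramming of mouse embryonic fibroblasts (MEF) into induced pluripotent stem cells (iPSC) by RNA-seq. The genes were taken by name and not by a measured value, but they were chosen with earlier results of these data known. All 9 were found among the 48321 gene names of both count tables. They are the ligand genes Tgfb1, Tgfb2 and Tgfb3, the receptor genes Tgfbr1 and Tgfbr2, the latency gene Ltbp1, the activin gene Inhba, the matrix gene Tgfbi and the feedback inhibitor gene Smad7. All 9 passed the low-count filter in both tables.

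TGF-beta ligands are secreted in a latent complex and stored in the extracellular matrix through LTBP proteins. Once released, a ligand binds the type II receptor TGFBR2, which phosphorylates the type I receptor TGFBR1, and this in turn phosphorylates the transcription factors SMAD2 and SMAD3. Activin A, a dimer of the Inhba product, feeds the same SMADs through activin receptors, and SMAD7 binds the type I receptors and blocks them. In fibroblasts the pathway is known for driving matrix production and contractile genes, and in reprogramming cultures it is known as a barrier to the change from a mesenchymal to an epithelial state.

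The study held 42 libraries in 14 groups of 3, in 2 sequencing batches that are also 2 separate count tables. The first table holds naivex2 cells, from 3 male lines (65E1, 65E4, 65E5) of the strain cross B6; 129S4-Tg(Tet1-mCherry)B37Koh with B6;CBA-Tg(Pou5f1-EGFP)2Mnn/J, carrying 1 copy each of the mCherry and GFP transgenes. Its groups are mCherry+/GFP- cells at day 10, mCherry+/GFP+ and mCherry+/GFP- cells at days 12 and 14, 1 clonal iPSC line from each, and the parental MEF at day 0. The second table holds totalx2 cells, from 3 male lines (73E6, 73E7, 73E8) of the cross B6- Tet1tm1.1Koh with B6;129S4-Pou5f1tm2Jae/J, labelled with the same genotype. Its groups are mCherry+/GFP- cells at day 8 and mCherry+/GFP+ and mCherry+/GFP- cells at days 10 and 12. The second table also holds clonal iPSC lines that are Tet1 knockout (mut/mut; GFP/wt; clones KO7 to KO9) or wild type (wt/wt; GFP/wt; clones WT1 to WT3), from a cross with the B6- Tet1tm1Koh allele, all male. The labels call totalx2 GFP- cells stage I and totalx2 GFP+ cells stage II at day 10 and stage III at day 12. naivex2 GFP- cells are also stage III, and naivex2 GFP+ cells are stage IV at day 12 and stage V at day 14. Reporter cells were sorted as mCherry+ with or without GFP, so Tet1 and Pou5f1 reporter activity defined the groups. iPSC lines and clones were at passage 6 to 7, and no passage is given for the other groups. iPSC were grown on feeder cells and depleted of them before harvest, which makes the feeders a possible source of fibroblast RNA. The title of 1 day 12 totalx2 GFP- library (line 73E7) lacks the mCherry mark, and its gate rests on its source name.

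Libraries held 9693737 to 20783265 counts in the first table and 6540256 to 20225778 in the second. Levels are given as CPM, the read count scaled to the TMM-adjusted library total, and values of 3 libraries follow the order of the lines or clones named above. Calls are from edgeR's quasi-likelihood test with Benjamini-Hochberg adjustment over all 16132 or 15197 genes tested in a table, at an adjusted p under 0.05, and fold changes are log2 with the standard error (SE). Over 8% of counts lay on mitochondrially encoded genes in 2 libraries, line 65E1 at day 10 with 8.99% and clone WT1 with 12.18%. Tet1, the targeted gene, was at 54.4, 58.6 and 57.3 CPM in knockout clones, against 1303, 823 and 874 CPM in wild-type clones. Its log2 fold change was -4.14 ± 0.178 (adjusted p = 2.52e-11), in the direction of the labels. The sorted cells were checked against 7 pluripotency markers, whose summed level was 2189 to 4289 CPM in the naivex2 reporter cells, against 1.72 to 2.82 CPM in MEF. In the second table that sum was 2085 to 3112 CPM in totalx2 GFP+ cells, against 384 to 801 CPM in totalx2 GFP- cells, and 3032 to 3948 CPM in iPSC. Levels are compared within a table only, and a lower level in a bulk sample cannot tell fewer cells of a type from less RNA per cell. Where libraries are said not to overlap, the share of all genes without overlap is not given. Such a statement describes the values and has no background to be read against.

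Promoters of 4 of the 7 genes whose GFP difference in totalx2 cells fell between day 10 and day 12 are shown. Those of Inhba and Ltbp1, also among the 7, are not printed. The 4 are a ligand pair, the type II receptor and the matrix target. Each is the 250 bases before a RefSeq start site in GRCm38.p6, 5′ to 3′ on the gene's strand. Capitals mark exact matches, on either strand, of CAGAC (the SMAD-binding element), of TGANTCA (the AP-1 site) and of GGGCGG (the GC box), and no base belongs to more than 1 match.
Tgfb1, chr7:25686752-25687001, plus strand: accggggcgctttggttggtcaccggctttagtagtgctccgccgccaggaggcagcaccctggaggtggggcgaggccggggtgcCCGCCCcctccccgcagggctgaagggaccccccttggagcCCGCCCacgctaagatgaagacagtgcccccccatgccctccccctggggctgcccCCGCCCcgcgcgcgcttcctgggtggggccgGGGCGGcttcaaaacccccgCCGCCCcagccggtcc
Tgfb2, chr1:186705990-186706239, minus strand: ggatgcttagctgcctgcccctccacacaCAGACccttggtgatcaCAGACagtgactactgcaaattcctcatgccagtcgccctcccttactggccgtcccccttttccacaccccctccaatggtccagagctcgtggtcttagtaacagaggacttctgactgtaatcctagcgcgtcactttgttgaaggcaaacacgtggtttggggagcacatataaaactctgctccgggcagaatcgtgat
Tgfbr2, chr9:116175364-116175613, minus strand: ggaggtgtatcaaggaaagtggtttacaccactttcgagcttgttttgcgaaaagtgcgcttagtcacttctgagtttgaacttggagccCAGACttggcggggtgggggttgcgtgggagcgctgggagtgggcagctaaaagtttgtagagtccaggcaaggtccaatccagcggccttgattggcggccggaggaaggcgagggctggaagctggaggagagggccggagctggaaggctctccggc
Tgfbi, chr13:56609336-56609585, plus strand: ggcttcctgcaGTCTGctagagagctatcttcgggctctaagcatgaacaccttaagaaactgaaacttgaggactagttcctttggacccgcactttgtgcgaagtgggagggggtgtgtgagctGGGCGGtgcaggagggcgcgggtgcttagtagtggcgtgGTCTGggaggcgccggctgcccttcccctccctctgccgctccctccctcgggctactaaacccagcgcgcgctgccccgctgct

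The 4 windows differed in these letters. Counted with the 50 bases after the start, Tgfb1 had 6 GC boxes and no SMAD-binding element, Tgfb2 had 2 SMAD-binding elements and no GC box, Tgfbr2 had 1 SMAD-binding element, and Tgfbi had 2 of each. Of all 32851 mouse promoter windows of the same length, 49.6% held CAGAC, 35.7% held GGGCGG and 7.81% held TGANTCA. Among the 9 windows of the 7 genes found in the RefSeq table, none held an AP-1 site and Inhba held no match of any of the 3 motifs. Tgfb3 and Smad7 were not matched.

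In mm10 the genes lie at chr7:25687002-25705077 (Tgfb1, plus strand), chr1:186622792-186705989 (Tgfb2, minus), chr12:86056744-86079041 (Tgfb3, minus) and chr4:47353222-47414931 (Tgfbr1, plus). Tgfbr2 lies at chr9:116087698-116175363 (minus), Ltbp1 at chr17:75005568-75392512 (plus), Inhba at chr13:16011851-16027211 (plus), Tgfbi at chr13:56609603-56639339 (plus) and Smad7 at chr18:75367529-75395935 (plus). Reads were counted over the whole gene, introns included. Ltbp1 overlaps the predicted gene Gm6276 on its own strand, so that a read in both is not counted and its level is uncertain to that extent. Tgfb2 and Tgfb3 overlap genes on the other strand only, and the counting used strand.

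In MEF, the genes differed widely in level. Levels per kb divide whole-gene counts, introns included, by exon length, so a gene with long introns can stand too high in such an order, and exons make up 2.76% of the Ltbp1 span against 41.6% of the Inhba span. Per kb of exon, Tgfb3 stood highest at 123 CPM, followed by Inhba at 73.6, Ltbp1 at 60.1 and Smad7 at 45.0 CPM. Tgfb1 and Tgfb2 were close to each other at 23.2 and 23 CPM per kb, and Tgfbr2, Tgfbr1 and Tgfbi followed at 16.3, 15.1 and 12.7 CPM per kb. In naivex2 iPSC the order was led by Smad7, at 31.0 CPM per kb, with Tgfbr1 next at 6.92 CPM per kb. In day 12 totalx2 GFP- cells Tgfbi led at 158 CPM per kb, ahead of Tgfbr2 at 24.5 CPM per kb.

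**Figure D1:**
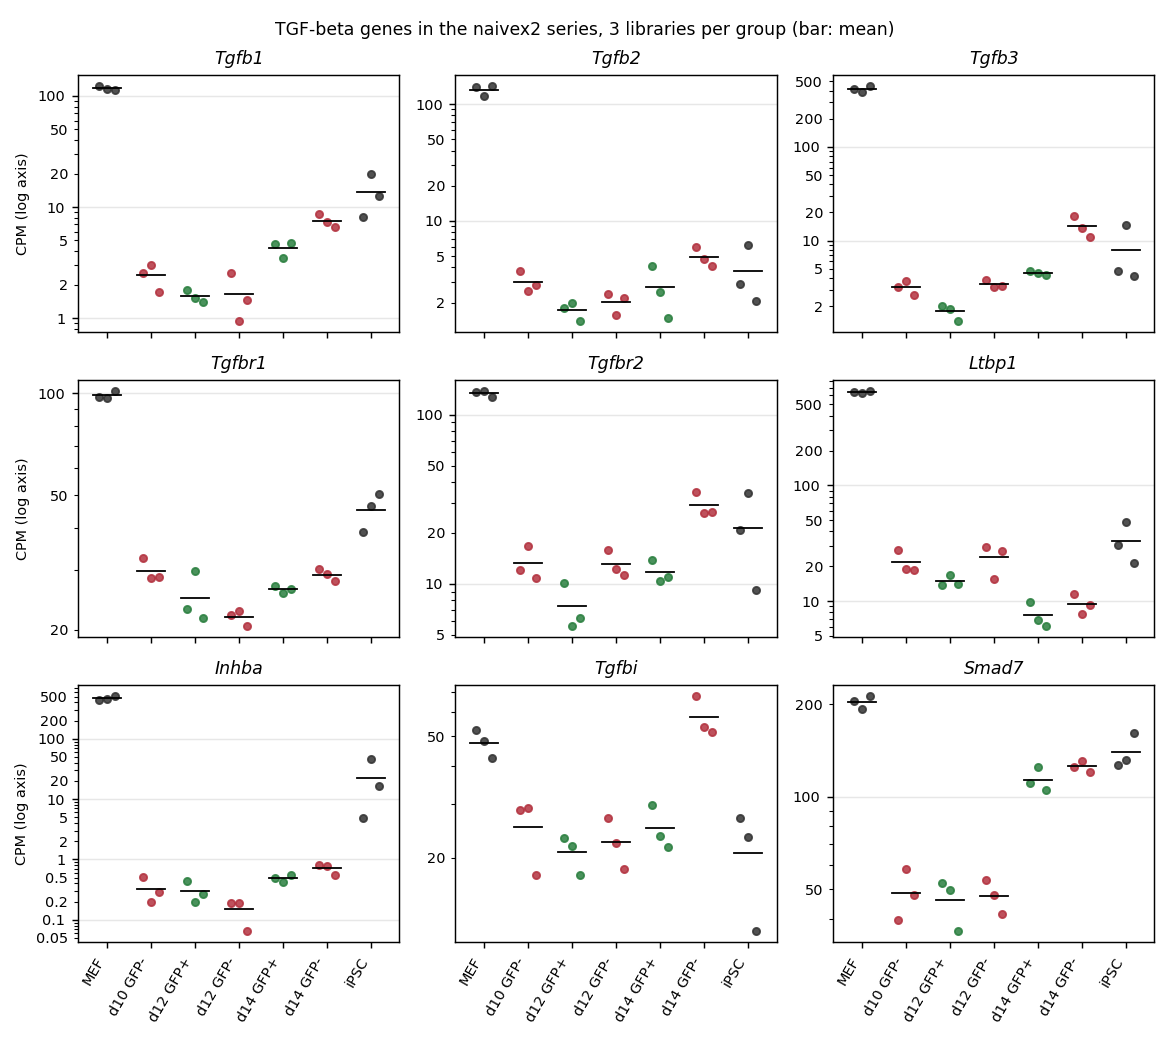
Level of each of the 9 genes in the 7 naivex2 groups, in CPM on a log axis; points are libraries (green GFP+, red GFP-, dark iPSC and MEF) and bars are group means (n = 3 lines). MEF are the highest group for 8 of the 9 genes, and Tgfbi is the exception, with day 14 GFP- cells at 51.8 to 67.7 CPM and MEF at 42.3 to 52.5 CPM.

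The first comparison asks how the pathway stood in the mCherry+ cells that had switched on the Tet1 reporter, relative to the parental MEF. All 9 genes were lower in day 10 naivex2 cells. Their libraries did not overlap, a count with no share over all genes beside it. Inhba and the 3 ligands were at 3.70 CPM or less in every day 10 library, whereas Tgfbr1 and Smad7 were at 28.4 CPM or more. Over all genes tested 76.4% were called in this comparison, 38.8% higher and 37.6% lower, and the median log2 fold change was -4.89 for the 9 genes and 0.06 for all genes. With library totals alone 60.54% of all calls were higher, against 50.82% with TMM, and the 9 genes stayed lower.

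Inhba, which encodes the activin A subunit, was at 0.505, 0.198 and 0.285 CPM in day 10 cells, against 446, 458 and 507 CPM in MEF. These day 10 levels rest on 6, 3 and 4 reads, so the size of the Inhba fold change is uncertain. Its log2 fold change was -10.50 ± 0.744 (adjusted p = 2.28e-09). Among the ligands, Tgfb3 was at 3.20, 3.70 and 2.64 CPM in day 10 cells, against 417, 383 and 445 CPM in MEF (log2 fold change -7.02 ± 0.364, adjusted p = 1.24e-11). Tgfb1 was at 2.53, 3.04 and 1.71 CPM in day 10 cells, against 122, 116 and 113 CPM in MEF (-5.58 ± 0.285, adjusted p = 6.08e-13). Tgfb2 fell as well, with a log2 fold change of -5.47 ± 0.30 (adjusted p = 2.89e-12). Every day 10 library was far below every MEF library for each of these ligands.

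The receptors fell less. Tgfbr2, the ligand-binding type II receptor, was at 12.0, 16.8 and 10.8 CPM in day 10 cells, against 136, 138 and 127 CPM in MEF (log2 fold change -3.33 ± 0.337, adjusted p = 9.4e-08). Tgfbr1, the type I receptor kinase, was at 32.6, 28.4 and 28.7 CPM in day 10 cells, against 97.5, 97.0 and 101.4 CPM in MEF (-1.72 ± 0.106, adjusted p = 4.05e-12). Smad7 was at 39.7, 58.3 and 47.8 CPM in day 10 cells, against 205, 193 and 212 CPM in MEF (-2.06 ± 0.138, adjusted p = 2e-11). Tgfbi, a secreted matrix protein first found as a TGF-beta target, had the smallest difference of the 9, at 28.8, 29.1 and 17.6 CPM in day 10 cells, against 52.5, 48.4 and 42.3 CPM in MEF (-0.92 ± 0.244, adjusted p = 0.00215). Ltbp1, which tethers latent ligand to the matrix, fell by 4.89 ± 0.292 on the log2 scale (adjusted p = 8.17e-11).

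Of 69 other pathway genes tested, 7 were higher and 56 lower in day 10 cells, against 76.4% of all genes called. Each of the 13 latency and activation genes called was lower, among them the ligand-cleaving protease gene Furin (log2 fold change -3.23) and the matrix gene Thbs1, whose product can release TGF-beta (-7.31). The activin antagonist Fst fell by 5.34 on the log2 scale. Of the 7 other receptors tested, the activin receptors Acvr2b and Acvr1b were higher (3.37 and 1.17) and the other 5 lower. Foxh1, a DNA-binding partner of SMAD2 in early embryos, had 0 reads in MEF and 30.5, 38.0 and 44.4 CPM in day 10 cells. That is at least 575-fold higher at a floor of 3 reads over the MEF group. Among 20 response genes, 19 were lower and Tgm2, a transglutaminase gene, was higher (0.82). The fibroblast markers moved with this comparison: 8 of 10 were lower, and their summed level was 557 to 914 CPM in day 10 cells, against 13140 to 13890 CPM in MEF, with none of the 10 at 0 in either group. All 5 smooth muscle markers and 5 of 6 leukocyte markers were lower too (1 leukocyte marker was higher), while 5 of 6 epithelial markers were higher and 1 lower. The part of these lists in the result was not tested.

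naivex2 iPSC, set against MEF, had the same 9 genes lower, with 77.3% of all genes called (37.9% higher, 39.4% lower) and a median log2 fold change of -3.10 for the 9 and 0.02 for all genes. The split of calls over all genes depended on the scaling, with 49.05% of calls higher after TMM and 59.14% with library totals alone. The falls were -5.68 for Tgfb3, -5.13 for Tgfb2, -4.36 for Inhba, -4.27 for Ltbp1, -3.10 for Tgfb1, -2.63 for Tgfbr2, -1.21 for Tgfbi and -1.13 for Tgfbr1 on the log2 scale. Smad7 differed least, at 127, 131 and 162 CPM in iPSC, against 205, 193 and 212 CPM in MEF (-0.54 ± 0.131, adjusted p = 0.000855). That call was lost with library totals alone (-0.24, adjusted p = 0.122; adjusted p over its alternatives 0.000248 to 0.122). Of the other pathway genes, 7 were higher and 57 lower, with all 20 response genes lower. Foxh1 stood at 34.1, 43.8 and 42.6 CPM in iPSC, at least 614-fold higher than in MEF at the same floor. The fibroblast marker sum was 713 to 2170 CPM in iPSC, against 13140 to 13890 CPM in MEF, with 1 of 10 markers higher and 8 lower. All 5 smooth muscle and 5 of 6 leukocyte markers were lower and 4 of 6 epithelial markers higher, 1 lower, and the part of these lists was not tested.

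Within the GFP- cells, which had not switched on the Pou5f1 reporter, several of the genes differed between day 14 and day 10. Smad7, Tgfb1, Tgfb3, Tgfbr2 and Tgfbi were higher at day 14 and Ltbp1 was lower, so 6 of the 9 were called, against 36.8% of all genes (20.3% higher, 16.5% lower). The median log2 fold change was 1.17 for the 9 and 0.03 for all genes. With library totals alone the share of all calls that were higher was 68.84%, against 55.27% with TMM. The 5 rises and the fall of Ltbp1 kept their direction under both scalings.

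Smad7 was at 125, 131 and 121 CPM at day 14, against 39.7, 58.3 and 47.8 CPM at day 10 (log2 fold change 1.36 ± 0.136, adjusted p = 2.61e-07). Tgfb3 was at 18.4, 13.5 and 10.99 CPM at day 14, against 3.20, 3.70 and 2.64 CPM at day 10 (2.16 ± 0.367, adjusted p = 0.000245). Tgfb1 was at 8.61, 7.27 and 6.60 CPM at day 14, against 2.53, 3.04 and 1.71 CPM at day 10 (1.62 ± 0.297, adjusted p = 0.000307). The day 14 libraries lay above all day 10 libraries for these 3 genes, yet both ligands stayed far below their MEF levels. Tgfbi was at 67.7, 53.7 and 51.8 CPM at day 14, against 28.8, 29.1 and 17.6 CPM at day 10 (1.20 ± 0.243, adjusted p = 0.000883), which put it within or above the range of MEF. Ltbp1 went the other way, at 11.6, 7.77 and 9.16 CPM at day 14, against 27.6, 19.01 and 18.6 CPM at day 10 (-1.19 ± 0.291, adjusted p = 0.00426). Tgfbr2 had a log2 fold change of 1.14 ± 0.33 (adjusted p = 0.0125) and could lose its call with 1 library: without line 65E5 at day 10 it was 1.00 (adjusted p = 0.0578), and without line 65E1 at day 14 it was 0.99 (adjusted p = 0.052; over its alternatives 0.00122 to 0.0578). Tgfbr1 did not pass the test, at 30.3, 29.2 and 27.8 CPM at day 14 against 32.6, 28.4 and 28.7 CPM at day 10. Tgfb2 and Inhba also missed it, although their libraries did not overlap. Inhba rested on 14, 17 and 9 reads at day 14, against 6, 3 and 4 reads at day 10.

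In the same cells 35 of 69 other pathway genes were higher and 6 lower, against 36.8% of all genes called. The latency genes (10 higher of 16) and the response genes (13 higher, 1 lower, of 20) held most of these, for example the elastin-associated ligand regulator Emilin1 (log2 fold change 1.86) and the smooth muscle protein gene Tagln (3.18). Smad6, the other inhibitory SMAD, rose by 1.77. Fibroblast markers moved with these genes, 7 of 10 higher, with a summed level of 2262 to 3750 CPM at day 14 against 557 to 914 CPM at day 10, and all 5 smooth muscle markers were higher. Of 5 trophectoderm markers tested 4 were higher and none lower, with a summed level of 41.9 to 55.98 CPM at day 14 against 8.33 to 11.4 CPM at day 10. Tagln, Acta2 and Col1a1 stand in both kinds of list. The part of these markers in the result was not tested.

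The next comparisons ask how cells that had switched on the Pou5f1 reporter differed from those that had not. At day 12 none of the 9 genes was called by edgeR between naivex2 GFP+ and GFP- cells, where 16.6% of all genes were (9.93% higher, 6.69% lower). An unadjusted p under 0.05 was found for 2 and DESeq2 called 1, Ltbp1. The medians were -0.10 for the 9 and 0.00 for all genes. Tgfbr2 was at 10.1, 5.66 and 6.31 CPM in GFP+ cells, against 15.8, 12.2 and 11.3 CPM in GFP- cells, a log2 fold change of -0.82 (95% interval -1.60 to -0.03; adjusted p = 0.156). Tgfb3 was at 2.02, 1.86 and 1.40 CPM in GFP+ cells, against 3.78, 3.23 and 3.30 CPM in GFP- cells, and Tgfbr2 and Tgfb3 had no overlap of the groups. Both were called in a fit of the 2 groups alone (adjusted p = 0.0167 and 0.00862; over their alternatives 0.0167 to 0.363 and 0.00862 to 0.431). Ltbp1, at -0.68 (adjusted p = 0.123), was called without the GFP- library of line 65E4 (-0.93, adjusted p = 0.0305; over its alternatives 0.0305 to 0.333). The intervals were narrow for Smad7 (-0.33 to 0.25) and Tgfbr1 (-0.04 to 0.42) and wide for Tgfb1 (-0.84 to 0.87). Inhba could not be read at this depth, with 6, 3 and 3 reads in GFP+ cells against 2, 3 and 1 reads in GFP- cells.

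Among the other pathway genes 2 were higher and 6 lower at day 12. Eng, which encodes the co-receptor endoglin, was at 44.5, 33.9 and 55.9 CPM in GFP+ cells, against 15.8, 14.1 and 15.7 CPM in GFP- cells (log2 fold change 1.56, adjusted p = 1.05e-06). Inhbb, the activin B subunit gene, was at 5.76, 7.78 and 6.40 CPM in GFP+ cells against 3.12, 5.25 and 2.84 CPM in GFP- cells (0.81), and Fstl3, an activin antagonist gene, was lower (-1.17). The summed level of the endothelial markers was 120 to 142 CPM in GFP+ cells and 50.6 to 58.7 CPM in GFP- cells, with 1 of the 4 tested higher and 1 lower. Pecam1 and Tek made up nearly all of that sum, and Cdh5, Tie1 and Kdr were at 0.133 CPM or less in every GFP+ library. Pluripotency markers were higher for 2 of 7 and none was lower. Of the epithelial markers 3 of 6 were lower and of the trophectoderm markers 2 of 5, none higher in either list, and the part of these lists was not tested. No fibroblast marker was called, and their summed level was 354 to 702 CPM in GFP+ cells and 572 to 926 CPM in GFP- cells. The count of 8 was 5 without the GFP+ library of line 65E5.

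At day 14, 5 of the 9 genes were lower in naivex2 GFP+ than in GFP- cells and none was higher, against 31.3% of all genes called (14.4% higher, 16.9% lower). The medians were -0.81 for the 9 and -0.02 for all genes. Tgfbi was at 29.9, 23.7 and 21.7 CPM in GFP+ cells, against 67.7, 53.7 and 51.8 CPM in GFP- cells (log2 fold change -1.21 ± 0.244, adjusted p = 0.000979). Tgfb3 was at 4.80, 4.53 and 4.32 CPM in GFP+ cells, against 18.4, 13.5 and 10.99 CPM in GFP- cells (-1.65 ± 0.353, adjusted p = 0.00185). Tgfbr2 was at 13.8, 10.3 and 10.99 CPM in GFP+ cells, against 35.0, 26.2 and 26.6 CPM in GFP- cells (-1.33 ± 0.337, adjusted p = 0.00642). For all 3 the groups did not overlap. Smad7 was not called, at 111, 125 and 105 CPM in GFP+ cells against 125, 131 and 121 CPM in GFP- cells, nor were Tgfbr1, Ltbp1 and Inhba.

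The calls of the other ligands at day 14 were less firm. Tgfb1 was at 4.61, 3.47 and 4.79 CPM in GFP+ cells, against 8.61, 7.27 and 6.60 CPM in GFP- cells (-0.81 ± 0.278, adjusted p = 0.0313). It lost its call without any 1 of the GFP+ libraries of lines 65E1 (-0.86), 65E4 (-0.65) or 65E5 (-0.91) or of the GFP- libraries of lines 65E1 (-0.71) or 65E4 (-0.82), with adjusted p over its alternatives of 0.00387 to 0.15. Tgfb2, at 4.12, 2.48 and 1.49 CPM in GFP+ cells against 5.95, 4.72 and 4.09 CPM in GFP- cells (-0.91 ± 0.336, adjusted p = 0.0471), overlapped between groups. It lost its call without the GFP+ library of line 65E4 (-0.84) or 65E5 (-0.61) and without the GFP- library of line 65E1 (-0.75) or 65E4 (-0.93), with adjusted p over its alternatives of 0.0133 to 0.219. Without 1 of the GFP+ libraries of lines 65E4 and 65E5 or of the GFP- libraries of lines 65E1 and 65E4 the count of genes called was 3 in place of 5.

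Other pathway genes followed at day 14 with 6 higher and 25 lower, 10 of the lower ones being latency genes such as Fbn2 (fibrillin-2, -1.504). Fstl3 fell by 2.08, and Inhbb (1.22), Eng (1.00) and the SMAD corepressor gene Tgif1 (0.39) were higher. Of the fibroblast markers 5 of 10 were lower, with sums of 1129 to 1880 CPM in GFP+ cells and 2262 to 3750 CPM in GFP- cells and none at 0. Epithelial markers were lower for 5 of 6, with sums of 774 to 838 CPM in GFP+ cells and 1039 to 1152 CPM in GFP- cells, and trophectoderm markers for 4 of 5, with sums of 16.4 to 19.1 CPM in GFP+ cells and 41.9 to 55.98 CPM in GFP- cells. Pluripotency markers were higher for 6 of 7 and none was lower. Of the smooth muscle markers 2 of 5 were lower, and the part of these lists was not tested. Whether the GFP difference itself changed between day 12 and day 14 was tested as a contrast of the 4 groups. None of the 9 genes was called by edgeR in that contrast (2 had an unadjusted p under 0.05, and DESeq2 called 0), where 1.54% of all genes were called (0.688% higher, 0.855% lower), and the medians were -0.71 for the 9 and -0.04 for all genes. Tgfbi came nearest, at -1.10 ± 0.351 (adjusted p = 0.15), and passed with the line as a block (-1.10, adjusted p = 0.00726; over its alternatives 0.00726 to 0.361). Acvr1, a type I receptor gene, was the single other pathway gene called (-0.97, adjusted p = 0.00653).

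**Figure D2:**
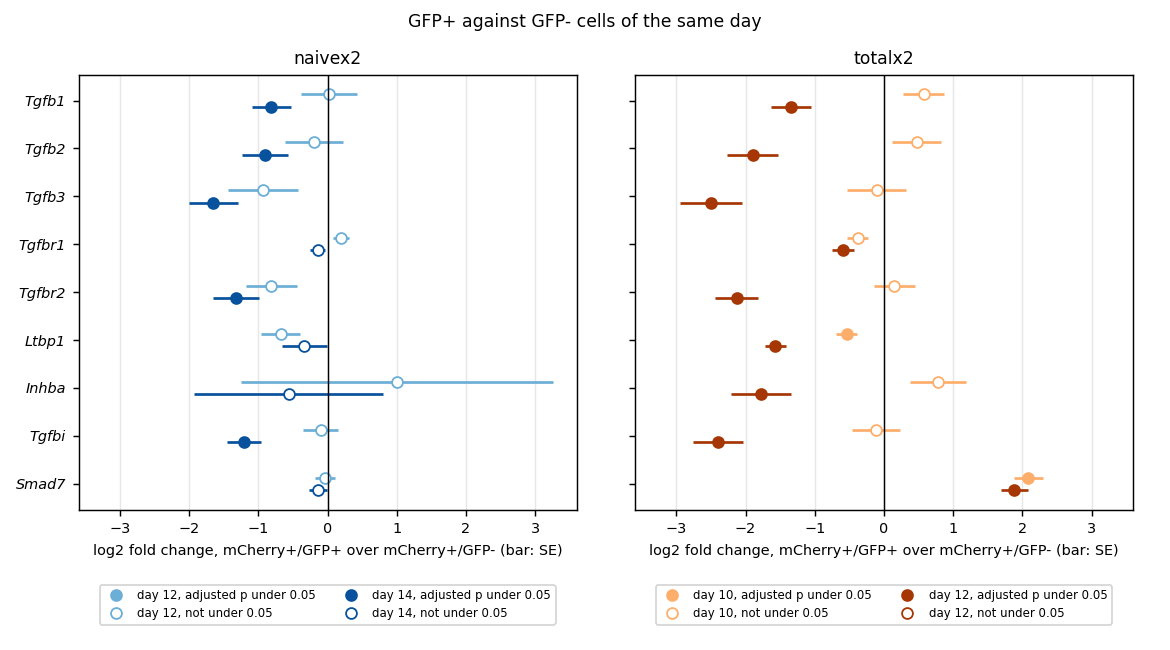
Log2 fold change of mCherry+/GFP+ over mCherry+/GFP- cells for each of the 9 genes at the 2 days of each system, with bars of 1 SE; filled points had an adjusted p under 0.05. In totalx2 cells at day 12 all 9 points are filled, 8 below 0 and Smad7 at 1.89 above it, whereas at day 10 Smad7 stands at 2.09 and Ltbp1 at -0.54 as the filled points.

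Along the GFP+ branch of naivex2, 4 of the 9 genes differed between day 14 and day 12, with 3 higher and 1 lower, against 30.5% of all genes called (14.5% higher, 16% lower). The medians were 0.66 for the 9 and 0.00 for all genes. Smad7 was at 111, 125 and 105 CPM at day 14, against 52.3, 49.6 and 36.6 CPM at day 12 (log2 fold change 1.30 ± 0.137, adjusted p = 7.72e-07). Tgfb1 was at 4.61, 3.47 and 4.79 CPM at day 14, against 1.80, 1.53 and 1.40 CPM at day 12 (1.42 ± 0.355, adjusted p = 0.00482). Both groups of libraries stood apart for these 2 genes. Tgfb3 (1.35 ± 0.485, adjusted p = 0.0455) lost its call with any 1 of the 6 libraries left out, at values of 1.22 to 1.45 (adjusted p over its alternatives 0.000232 to 0.114). Ltbp1 (-0.99 ± 0.321, adjusted p = 0.0274) lost it without the day 12 library of line 65E4 (-0.89) or the day 14 library of line 65E4 (-0.92) or 65E5 (-0.86), with adjusted p of 0.000357 to 0.104 over its alternatives; without any 1 of these 3 libraries 2 genes were called. Of the other pathway genes 19 were higher and 10 lower, Inhbb by 1.64 and Emilin1 by 1.38, with Gdf15, a stress-induced ligand gene, at -1.70. That count of 29 was 17 without the day 12 library of line 65E5 and 18 without the day 14 library of line 65E1. The fibroblast markers again moved, 6 of 10 higher, with sums of 1129 to 1880 CPM at day 14 against 354 to 702 CPM at day 12. Of 5 trophectoderm markers 4 were higher, and of 6 epithelial markers 2 were lower, and the part of these lists was not tested.

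In established naivex2 iPSC, compared with day 14 GFP+ cells, 5 of the 9 genes were higher and none lower, against 46.8% of all genes called (24.3% higher, 22.5% lower). The medians were 0.83 for the 9 and 0.02 for all genes. Inhba was at 4.95, 46.1 and 16.5 CPM in iPSC, against 0.490, 0.425 and 0.550 CPM in day 14 GFP+ cells (log2 fold change 5.53 ± 0.791, adjusted p = 3.98e-05). Its 3 iPSC lines were widely spread, with line 65E4 highest and line 65E1 lowest. Inhba was at a mean of 0.715 CPM or less in every sorted naivex2 group, so it passed the low-count filter there through MEF and iPSC. Its day 14 GFP+ level, a mean of 0.488 CPM, rests on few reads, and the size of its fold change is uncertain. Ltbp1 was at 30.3, 48.2 and 21.1 CPM in iPSC, against 9.80, 6.87 and 6.13 CPM in day 14 GFP+ cells (2.15 ± 0.305, adjusted p = 2.47e-05). Tgfb1 was at 8.20, 19.97 and 12.5 CPM in iPSC, against 4.61, 3.47 and 4.79 CPM in day 14 GFP+ cells (1.68 ± 0.27, adjusted p = 4.53e-05), and Tgfbr1 at 38.8, 46.4 and 50.4 CPM in iPSC, against 26.9, 25.7 and 26.3 CPM in day 14 GFP+ cells (0.78 ± 0.107, adjusted p = 5.42e-06). These 4 genes had no overlap of the libraries.

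Line 65E4 stood out among the iPSC. Tgfbr2 was at 20.7, 34.4 and 9.13 CPM in iPSC, against 13.8, 10.3 and 10.99 CPM in day 14 GFP+ cells (0.88 ± 0.342, adjusted p = 0.0435). Its groups overlapped, and its value was 0.34 (adjusted p = 0.373) without the iPSC of line 65E4. It also lost its call without the iPSC of line 65E1 (0.89) and without the day 14 library of line 65E1 (1.01), 65E4 (0.78) or 65E5 (0.84), with adjusted p over its alternatives of 0.000351 to 0.373. Tgfb3, not called in all 3 lines (0.83), was at -0.03 without iPSC line 65E4, and was called without line 65E1 (1.05, adjusted p = 0.0263) or 65E5 (1.12, adjusted p = 0.011; over its alternatives 0.011 to 0.928). Tgfb2 (0.53) was at -0.10 without iPSC line 65E4 and passed without line 65E5 (0.81, adjusted p = 0.0482; over its alternatives 0.0482 to 0.827). The fibroblast marker sum was 1276, 2170 and 713 CPM in the 3 iPSC lines, against 1129 to 1880 CPM in day 14 GFP+ cells, with 7 of 10 markers higher. The smooth muscle sum was 63.6, 353 and 159 CPM in iPSC, against 85.8 to 106 CPM in day 14 GFP+ cells. Line 65E4 was highest in both sums. Of the 5 smooth muscle markers 2 were higher and 1 lower, and of the 6 epithelial markers 4 were lower, and their part in the result was not tested.

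Of the other pathway genes, 27 were higher and 9 lower in naivex2 iPSC. Thbs1 was at 382, 2177 and 673 CPM in iPSC, against 124, 81.8 and 91.7 CPM in day 14 GFP+ cells (3.45). It was highest in line 65E4. Lrrc32, which encodes the cell-surface anchor of latent ligand GARP, rose by 2.51. Of the 18 SMAD and regulator genes 7 were higher and none lower. Eng (-1.65) and Tgm2 (-2.08) fell.

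In totalx2 cells without GFP, compared between day 12 and day 8, Tgfb1 was higher and Ltbp1 lower, so 2 of the 9 genes were called, against 31.6% of all genes (17.1% higher, 14.5% lower). The medians were 0.02 for the 9 and 0.02 for all genes. Tgfb1 was at 12.5, 13.9 and 15.9 CPM at day 12, against 5.35, 7.81 and 6.35 CPM at day 8 (log2 fold change 1.11 ± 0.281, adjusted p = 0.00518). Ltbp1 was at 65.6, 68.2 and 59.3 CPM at day 12, against 120, 162 and 121 CPM at day 8 (-1.06 ± 0.148, adjusted p = 3.19e-05). Tgfbi was at 513, 574 and 697 CPM at day 12, against 220, 355 and 403 CPM at day 8 (0.87 ± 0.344, adjusted p = 0.0634), without overlap, and passed with the line as a block (0.92, adjusted p = 0.00603; over its alternatives 0.00603 to 0.205). Its day 10 GFP- libraries lay below, at 99.1, 176 and 318 CPM, and Tgfbr2, Tgfb2 and Tgfb3 were also lowest at day 10 by their means. For Tgfbr2 the 3 days had 141, 206 and 183 CPM at day 8, 60.8, 104 and 153 CPM at day 10 and 194, 193 and 213 CPM at day 12. In the day 10 GFP- cells, line 73E6 was lowest for each of these 4 genes and line 73E8 highest.

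**Figure D3:**
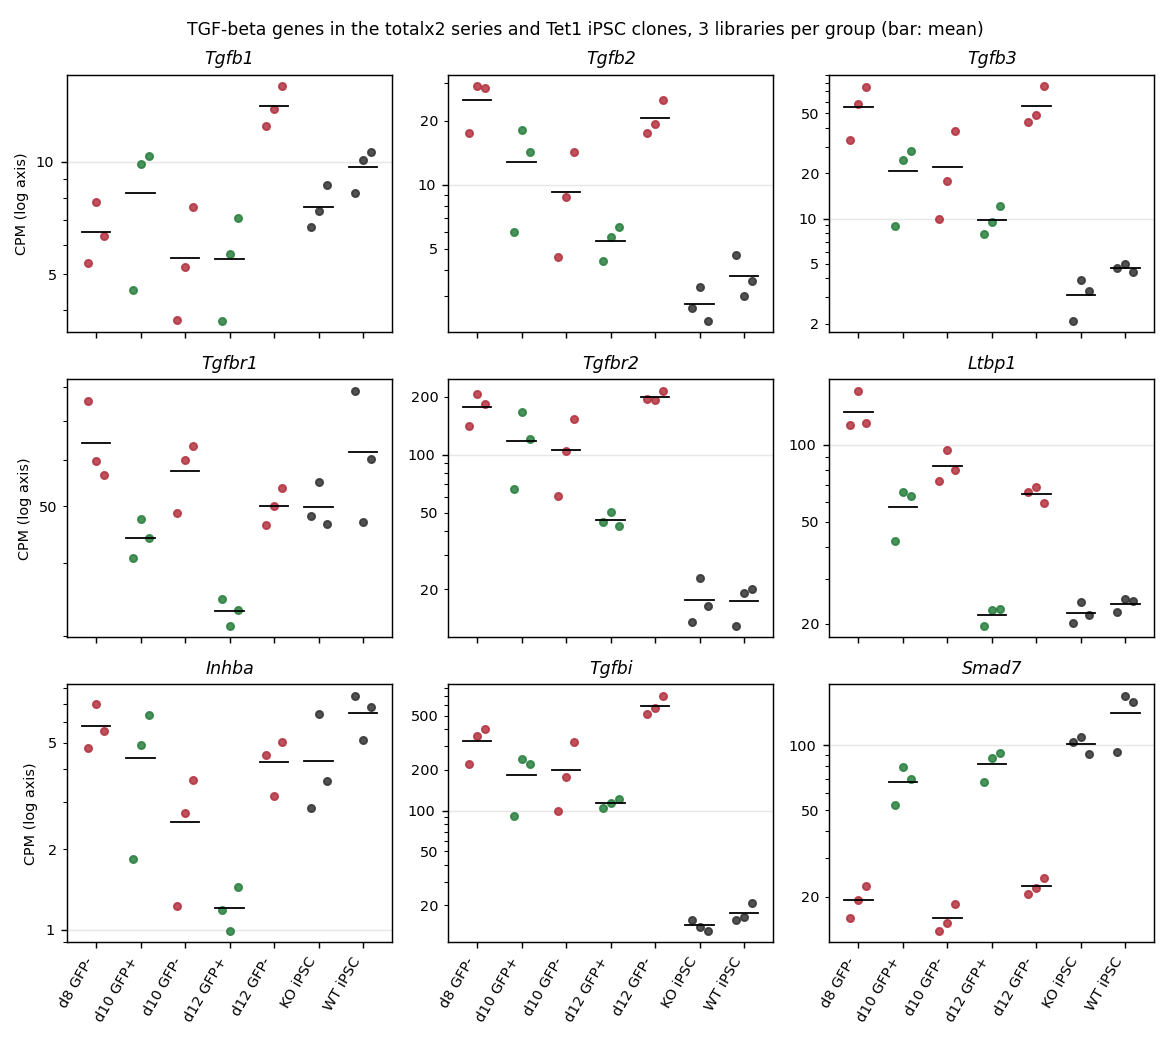
Level of each of the 9 genes in the 7 groups of the second table, in CPM on a log axis; points are libraries (green GFP+, red GFP-, dark iPSC) and bars are group means (n = 3 lines or clones). Smad7 lies at 53.1 CPM or more in every GFP+ and iPSC library and at 24.4 CPM or less in every GFP- library, and no other of the 9 genes is split in this way.

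Of the other pathway genes in GFP- cells, 20 were higher and 5 lower at day 12 than at day 8. Among the higher were 9 response genes, with Tagln at 1.67, and 3 were among the lower, with the matrix gene Postn (periostin) at -1.62. Ltbp4, a further latency gene, rose by 1.82, and the matrix proteoglycan Dcn (decorin), which can sequester TGF-beta, fell by 2.27. Fibroblast markers moved too, 1 of 10 higher and 4 lower, with sums of 5154 to 7154 CPM at day 12 against 8460 to 13960 CPM at day 8 and none at 0. Trophectoderm markers were higher for 5 of 5, with sums of 23.6 to 31.2 CPM at day 12 against 5.54 to 6.88 CPM at day 8. Epithelial markers were higher for 5 of 6, with sums of 575 to 778 CPM at day 12 against 290 to 480 CPM at day 8, and smooth muscle markers, which share Tagln and Acta2 with the response genes, for 3 of 5. Pluripotency markers were higher for 5 of 7 and none was lower. The part of these lists was not tested.

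Smad7 was far higher in the GFP+ than in the GFP- cells of totalx2 at day 10. It was at 53.1, 79.2 and 69.8 CPM in GFP+ cells, against 13.9, 15.1 and 18.5 CPM in GFP- cells (log2 fold change 2.09 ± 0.207, adjusted p = 4.42e-07). Ltbp1 was the other gene called, at 42.03, 65.5 and 63.3 CPM in GFP+ cells, against 72.6, 95.8 and 79.8 CPM in GFP- cells (-0.54 ± 0.15, adjusted p = 0.0126). So 2 of the 9 were called, 1 in each direction, against 22.4% of all genes (13% higher, 9.36% lower), with medians of 0.15 for the 9 and 0.04 for all genes. The call of Ltbp1 was lost without the GFP- library of line 73E7 (-0.44, adjusted p = 0.0626), which leaves 1 gene called, and without the GFP+ library of line 73E6 (-0.38, adjusted p = 0.0599; over its alternatives 0.00143 to 0.0626).

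The other genes were widely spread over the lines within each day 10 group. Tgfbr2 was at 66.0, 167 and 120 CPM in GFP+ cells, against 60.8, 104 and 153 CPM in GFP- cells (0.15, 95% interval -0.47 to 0.78). Tgfbi was at 91.0, 238 and 219 CPM in GFP+ cells, against 99.1, 176 and 318 CPM in GFP- cells (-0.11, interval -0.84 to 0.61). In both, line 73E6 was lowest in each gate, and these intervals leave room for a difference of either sign. Tgfb1 (0.57, adjusted p = 0.178) passed with the line as a block (0.57, adjusted p = 0.0449) and without the GFP+ library of line 73E6 (0.85, adjusted p = 0.0329; over its alternatives 0.0329 to 0.516). Without that library Inhba also passed (1.13, adjusted p = 0.0411; over its alternatives 0.0411 to 0.618). Without the GFP- library of line 73E6 Tgfbr1 passed (-0.49, adjusted p = 0.0345; over its alternatives 0.0146 to 0.189), from 40.8, 47.6 and 44.1 CPM in GFP+ cells against 48.7, 60 and 63.5 CPM in GFP- cells.

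Other pathway genes were few at day 10, with 7 higher and 6 lower, and 24 called with the line as a block. Foxh1 was at 31.6, 29.8 and 31.5 CPM in GFP+ cells, against 13.2, 12.8 and 12.2 CPM in GFP- cells (1.28). Nrros, a latent ligand anchor of macrophages and microglia, was higher (1.64), Postn was higher (1.16), and Fbn2 (-1.21) and the receptor SMAD gene Smad3 (-0.60) were lower. All 6 leukocyte markers, Ptprc and Csf1r among them, were higher, with a summed level of 56.2, 163 and 175 CPM in GFP+ cells against 10.4, 27.5 and 20.7 CPM in GFP- cells and none at 0. No fibroblast marker was called, with sums of 2809, 7734 and 5249 CPM in GFP+ cells and 1581, 3467 and 4913 CPM in GFP- cells. All 7 pluripotency markers were higher. Of the epithelial markers 3 of 6 were higher, of the trophectoderm markers 3 of 5 lower, and of 4 endothelial markers 1 was higher and 2 lower. The part of these lists in the values was not tested.

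At day 12 all 9 genes differed. The totalx2 GFP+ cells had 8 of the 9 lower than GFP- cells and Smad7 higher, against 61.6% of all genes called (31.2% higher, 30.4% lower). The libraries did not overlap for any of the 9, a count with no share over all genes beside it. The medians were -1.77 for the 9 and 0.05 for all genes. Tgfbr2 was at 44.8, 50.1 and 42.7 CPM in GFP+ cells, against 194, 193 and 213 CPM in GFP- cells (log2 fold change -2.13 ± 0.311, adjusted p = 1.21e-05). Tgfbi was at 104, 114 and 121 CPM in GFP+ cells, against 513, 574 and 697 CPM in GFP- cells (-2.40 ± 0.361, adjusted p = 1.98e-05). Tgfb3 was at 7.88, 9.51 and 12.1 CPM in GFP+ cells, against 43.5, 48.7 and 75.8 CPM in GFP- cells (-2.50 ± 0.444, adjusted p = 9.74e-05). The ligand, its receptor and the matrix target were thus each far lower in the GFP+ cells of every line.

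The latency gene and the remaining ligands fell as well. Ltbp1 was at 19.7, 22.6 and 22.8 CPM in GFP+ cells, against 65.6, 68.2 and 59.3 CPM in GFP- cells (-1.57 ± 0.157, adjusted p = 8.62e-08). Tgfb2 was at 4.40, 5.68 and 6.35 CPM in GFP+ cells, against 17.5, 19.3 and 24.96 CPM in GFP- cells (-1.90 ± 0.367, adjusted p = 0.000188). Tgfb1 was at 3.76, 5.68 and 7.07 CPM in GFP+ cells, against 12.5, 13.9 and 15.9 CPM in GFP- cells (-1.34 ± 0.285, adjusted p = 0.000442). Inhba, at a mean of 1.21 CPM in GFP+ cells against 4.23 CPM in GFP- cells, fell by 1.77 ± 0.436 (adjusted p = 0.00162). These levels rest on 13, 7 and 20 reads in GFP+ cells and 94, 27 and 48 reads in GFP- cells, from libraries of unequal depth. Tgfbr1 fell by the smallest amount, at 34.7, 31.2 and 33.3 CPM in GFP+ cells against 46.4, 50.1 and 53.8 CPM in GFP- cells (-0.59 ± 0.154, adjusted p = 0.00248). Smad7 stood against all of them, at 67.4, 87.3 and 91.7 CPM in GFP+ cells, against 20.6, 21.9 and 24.4 CPM in GFP- cells (1.89 ± 0.201, adjusted p = 2.01e-07). None of these 9 calls was lost in any of the alternatives tried.

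Of 68 other pathway genes 49 were lower and 11 higher at day 12, against 61.6% of all genes called. Of 15 latency genes 12 fell, with Fbn2 at 62.8, 75.1 and 55.7 CPM in GFP+ cells, against 570, 639 and 603 CPM in GFP- cells (-3.23, adjusted p = 1.07e-11), while Ltbp4 rose, at 139, 131 and 145 CPM in GFP+ cells against 65.6, 57.0 and 56.9 CPM in GFP- cells (1.21). Of 8 other ligand and antagonist genes 7 fell, Gdf15, Dcn and Bgn among them, and Inhbb was not called (-0.447, adjusted p = 0.0843). Of the receptors the betaglycan gene Tgfbr3 fell by 2.16 while Acvr2b (0.78) rose. The SMADs and regulators were divided, 6 higher and 8 lower, with Smad3 at -1.35 and Foxh1 (1.65) and Tgif1 (0.91) on the other side. Of the 20 response genes, 18 fell, such as the cell-cycle inhibitor gene Cdkn2b (-2.19) and Acta2 (-2.34), and Fn1 (fibronectin, 0.29) rose. The fibroblast markers moved with all of this: 10 of 10 were lower, with sums of 1304 to 1585 CPM in GFP+ cells and 5154 to 7154 CPM in GFP- cells, and none at 0. The smooth muscle sum was 87.5 to 128 CPM in GFP+ cells and 371 to 504 CPM in GFP- cells, with 3 of 5 markers lower and 1 higher. Endothelial markers were lower for 3 of 4 and higher for 1, trophectoderm markers lower for 3 of 5, and epithelial markers higher for 4 of 6. All 7 pluripotency markers were higher. Col1a1, Dcn, Acta2 and Tagln stand in both the pathway and the marker lists, and the part of the markers in the result was not tested.

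**Figure D4:**
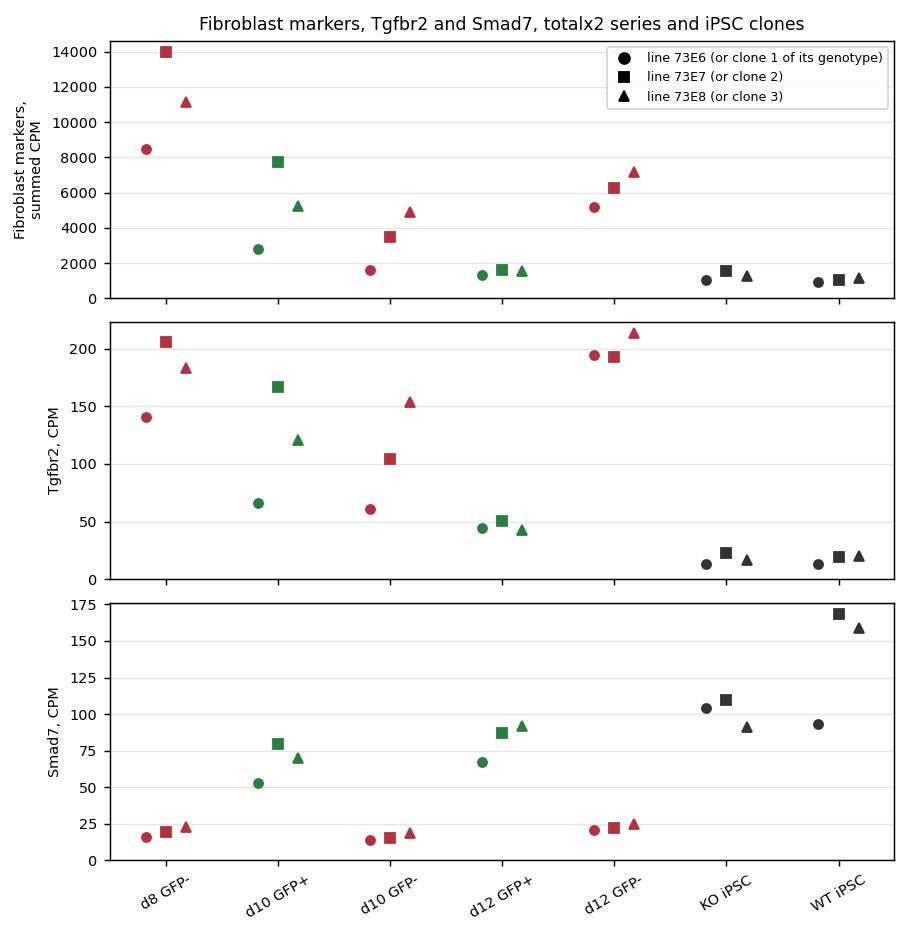
Summed level of 10 fibroblast markers, Tgfbr2 and Smad7 in each library of the second table, in CPM on linear axes from 0, by line (circle 73E6, square 73E7, triangle 73E8) or clone. Tgfbr2 is lower in day 12 GFP+ cells (42.7 to 50.1 CPM) than in day 12 GFP- cells (193 to 213 CPM), as is the marker sum, while Smad7 is higher.

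The change of the GFP difference between day 10 and day 12 was tested as a contrast of the 4 totalx2 groups. In that contrast 7 of the 9 genes were lower and none higher, against 27.3% of all genes called (10.5% higher, 16.7% lower), with medians of -2.28 for the 9 and 0.01 for all genes. The differences of the log2 fold changes were -2.55 ± 0.598 for Inhba (adjusted p = 0.00417), -2.39 ± 0.613 for Tgfb3 (0.00807), -2.37 ± 0.513 for Tgfb2 (0.00256), -2.28 ± 0.427 for Tgfbr2 (0.00106) and -2.28 ± 0.494 for Tgfbi (0.0029). Those of Tgfb1 and Ltbp1 were -1.92 ± 0.408 (adjusted p = 0.00223) and -1.03 ± 0.216 (0.00199). Smad7 (-0.20, adjusted p = 0.647, 95% interval -0.79 to 0.39) and Tgfbr1 (-0.22, adjusted p = 0.503) were not called. Of the other pathway genes 3 were higher and 45 lower, for example Col1a1 (-2.88), Bgn (-2.80) and Tgfbr3 (-2.41), against Tgif2 (0.52). All 10 fibroblast markers and 4 of 6 leukocyte markers were lower in this contrast too, and their part was not tested.

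**Figure D5:**
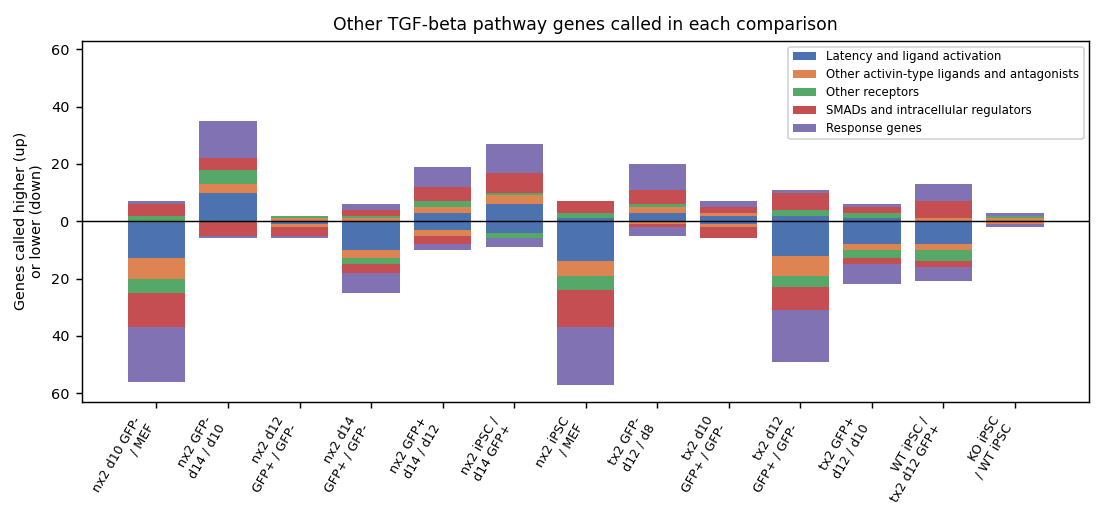
Number of the other pathway genes called higher (up) or lower (down) in each of 13 comparisons of groups, stacked by role. The largest falls are in day 10 cells and iPSC against MEF (56 and 57 lower) and in totalx2 GFP+ against GFP- cells at day 12 (49 lower).

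Within totalx2 GFP+ cells, 4 of the 9 genes were lower at day 12 than at day 10 and none higher, against 25.1% of all genes called (12.2% higher, 12.9% lower). The medians were -1.05 for the 9 and 0.00 for all genes. Ltbp1 was at 19.7, 22.6 and 22.8 CPM at day 12, against 42.03, 65.5 and 63.3 CPM at day 10 (log2 fold change -1.39 ± 0.159, adjusted p = 6.2e-06). Tgfbr2 was at 44.8, 50.1 and 42.7 CPM at day 12, against 66.0, 167 and 120 CPM at day 10 (-1.36 ± 0.308, adjusted p = 0.00367). Inhba fell by 1.80 ± 0.449 (adjusted p = 0.00656). Smad7 stayed high at both days and was not called (0.29, adjusted p = 0.303).

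One library, the day 10 GFP+ cells of line 73E6, bore on the other genes. Without it 8 of the 9 were called in place of 4: Tgfb1 (-0.87, adjusted p = 0.0243), Tgfb3 (-1.41, adjusted p = 0.0197), Tgfbi (-1.02, adjusted p = 0.0212) and Tgfbr1 (-0.47, adjusted p = 0.0494) were added. Over their alternatives the adjusted p ran from 0.0243 to 0.488 for Tgfb1, from 0.00481 to 0.32 for Tgfb3, from 0.0212 to 0.485 for Tgfbi and from 0.00817 to 0.182 for Tgfbr1. With the line as a block Tgfb1 (-0.56, adjusted p = 0.0458) and Tgfb3 (adjusted p = 0.00481) were called as well. Tgfb2, called in all libraries (-1.22 ± 0.377, adjusted p = 0.0233), lost its call without the day 10 library of line 73E7 (-0.87) or 73E8 (-1.14) or the day 12 library of line 73E6 (-1.08) or 73E7 (-1.24), with adjusted p of 0.00246 to 0.165 over its alternatives. Of the other pathway genes 6 were higher and 22 lower at day 12, with Postn at -2.09, Lrrc32 at -1.95 and Col1a1 at -1.80 against Fn1 at 0.56. That count of 28 was 16 without the day 10 library of line 73E7 and 18 without the day 12 library of line 73E6. At day 12, 9 of 10 fibroblast and 5 of 6 leukocyte markers were lower than at day 10, and 2 of 5 trophectoderm markers were higher, and their part was not tested.

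Wild-type iPSC clones were compared with the day 12 totalx2 GFP+ cells of the same table, which come from another cross and reporter, so that cell stage and strain cannot be told apart. In iPSC 4 of the 9 genes were higher and 2 lower, against 51.1% of all genes called (25% higher, 26% lower), with medians of 0.15 for the 9 and -0.01 for all genes. With library totals alone 37.43% of all calls were higher, against 49.01% with TMM. The 6 genes kept their direction under both. Tgfbi was at 15.6, 16.5 and 20.9 CPM in iPSC, against 104, 114 and 121 CPM in GFP+ cells (log2 fold change -2.66 ± 0.384, adjusted p = 2.15e-05). Tgfbr2 was at 12.9, 19.2 and 19.97 CPM in iPSC, against 44.8, 50.1 and 42.7 CPM in GFP+ cells (-1.38 ± 0.324, adjusted p = 0.00183). The groups did not overlap for either gene.

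On the rising side, Inhba was at 7.47, 5.13 and 6.79 CPM in iPSC, against 1.19, 0.994 and 1.44 CPM in GFP+ cells (2.37 ± 0.429, adjusted p = 0.000155). Tgfbr1 was at 78.7, 46.9 and 60.2 CPM in iPSC, against 34.7, 31.2 and 33.3 CPM in GFP+ cells (0.90 ± 0.154, adjusted p = 8.98e-05). Smad7 was at 93.5, 169 and 159 CPM in iPSC, against 67.4, 87.3 and 91.7 CPM in GFP+ cells (0.78 ± 0.188, adjusted p = 0.00206). In each case all 3 iPSC clones exceeded all 3 GFP+ lines. Tgfb1 was at 8.27, 10.1 and 10.6 CPM in iPSC, against 3.76, 5.68 and 7.07 CPM in GFP+ cells (0.81 ± 0.287, adjusted p = 0.0237). It lost its call without clone WT3 (0.76) or the GFP+ library of line 73E6 (0.61) or 73E7 (0.82), with adjusted p of 0.00154 to 0.111 over its alternatives. Among the other pathway genes 13 were higher and 21 lower, with Inhbb (1.56) and the pseudoreceptor gene Bambi (1.34) among the rises and Fbn2 (-3.74) the steepest fall. Fibroblast marker sums were 910 to 1145 CPM in iPSC and 1304 to 1585 CPM in GFP+ cells, with 1 of 10 markers higher and 2 lower. Epithelial markers were lower for 5 of 6, with sums of 660 to 771 CPM in iPSC and 986 to 1117 CPM in GFP+ cells, and their part was not tested.

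Loss of Tet1 was the last comparison. None of the 9 genes was called by edgeR between knockout and wild-type iPSC (1 had an unadjusted p under 0.05, and DESeq2 called 0), where 10.7% of all genes were called (4.78% higher, 5.87% lower). The medians were -0.36 for the 9 and -0.04 for all genes. Over all genes, 44.9% of calls were higher with TMM and 55.96% with library totals alone. Smad7 was at 104, 109 and 90.9 CPM in knockout clones, against 93.5, 169 and 159 CPM in wild-type clones (log2 fold change -0.47 ± 0.187, 95% interval -0.86 to -0.08, adjusted p = 0.112). The wild-type clones overlapped the knockout clones through WT1, the clone with 12.18% of counts on mitochondrially encoded genes. Without WT1 Smad7 was called (-0.69, adjusted p = 0.00682; over its alternatives 0.00682 to 0.359), which makes the count 1 in place of 0.

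The other members had wider or more central intervals in the knockout. Tgfbr1 was at 48.2, 54.98 and 46.7 CPM in knockout clones, against 78.7, 46.9 and 60.2 CPM in wild-type clones (-0.30, interval -0.62 to 0.01), and was called without WT2 (-0.46, adjusted p = 0.029; over its alternatives 0.029 to 0.695). Tgfbr2 was at 13.5, 22.8 and 16.3 CPM in knockout clones, against 12.9, 19.2 and 19.97 CPM in wild-type clones (0.00, interval -0.70 to 0.71). Tgfb3 was at 2.09, 3.89 and 3.29 CPM in knockout clones, against 4.67, 4.97 and 4.39 CPM in wild-type clones (-0.57, interval -1.75 to 0.61), and was the single gene of the 9 whose groups did not overlap. Ltbp1 had the narrowest interval of the ligand and latency genes (-0.12, interval -0.45 to 0.22).

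Of the other pathway genes called in the knockout, 2 encode activin or inhibin subunits. Inhbb was at 25.96, 36.2 and 36.9 CPM in knockout clones, against 51.0, 79.0 and 87.9 CPM in wild-type clones (-1.14 ± 0.215, adjusted p = 0.00204). Inha, whose product pairs with activin subunits to form inhibin, was at 2.97, 3.73 and 4.49 CPM in knockout clones, against 0.667, 1.39 and 1.08 CPM in wild-type clones (1.77 ± 0.339, adjusted p = 0.00228). Both were without overlap. Of 68 other pathway genes these 2, Tgm2 (-1.12), Eng (0.40) and Junb (0.85) were called, 3 higher and 2 lower, against 10.7% of all genes. Without clone KO7 3 were called, and with the compared groups alone 1. Fibroblast marker sums were 1042 to 1570 CPM in knockout and 910 to 1145 CPM in wild-type clones, with no fibroblast marker called. Of 4 endothelial markers 2 were higher and 1 lower, with sums of 100.7 to 108 CPM in knockout and 108 to 149 CPM in wild-type clones, and 1 epithelial and 1 trophectoderm marker were lower. Their part in the values was not tested.

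Across the groups of the second table the level of Smad7 ordered them as wild-type iPSC (140 CPM), knockout iPSC (101.4 CPM), totalx2 GFP+ cells at day 12 (82.1 CPM) and day 10 (67.4 CPM), then GFP- cells at day 12 (22.3 CPM), day 8 (19.2 CPM) and day 10 (15.9 CPM). Of the 6 neighbouring steps in that order, the one between day 10 GFP+ and day 12 GFP- cells was the only one without overlap of the libraries. For Tgfbr2 the order was GFP- cells at day 12 (200.2 CPM) and day 8 (177 CPM), GFP+ (118 CPM) and GFP- (106 CPM) cells at day 10, GFP+ cells at day 12 (45.9 CPM), and knockout (17.5 CPM) and wild-type (17.4 CPM) iPSC. Its steps from day 10 GFP- to day 12 GFP+ cells and from these to iPSC were without overlap. In the naivex2 table MEF were highest for 8 genes, and the lowest mean level was in GFP+ or GFP- cells at day 12 for Tgfb1, Tgfb2, Tgfb3, Tgfbr1, Tgfbr2, Inhba and Smad7, in day 14 GFP+ cells for Ltbp1 and in iPSC for Tgfbi. The libraries of the lowest group overlapped those of the next group for Tgfb1, Tgfb2, Tgfbr1, Smad7, Ltbp1 and Tgfbi, and the Inhba levels at day 12 rest on few reads.

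The genes most like each member, by Pearson's r of log2 CPM over the 21 libraries of a table, are given as a description. The points share lines, and all groups of a table enter. In the second table Tgfbr2 was followed most closely by Fbn1 (r = 0.994), Tgfbi by Maf (0.991), Tgfb2 by Arsb (0.985), Tgfb3 by Rgl1 (0.982), Ltbp1 by Acsl5 (0.969), Inhba by Cobll1 (0.936), Tgfbr1 by Tmco1 (0.919) and Tgfb1 by Plau (0.913). Smad7 was most like Tbx3 (0.976). In the naivex2 table the closest were Ehd2 for Tgfb3 (0.994), Mrc2 for Tgfbr2 (0.991), Lrrk1 for Tgfb2 (0.990), Nbea for Ltbp1 (0.989), Ssr1 for Tgfbr1 (0.988), Cav1 for Tgfb1 (0.986), Tnnt1 for Smad7 (0.959) and Ifi27 for Tgfbi (0.900). None of these genes was the closest to the same member in both tables.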

How the data were processed

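RNA was poly(A)-selected and libraries were stranded, per the labels. The deposited values are raw read counts per gene, which the authors made with featureCounts 1.5.3 over whole genes, introns included, with strand setting 2 and the GENCODE vM10 annotation, per the file headers. Alignment with HISAT2 2.1.0 to mm10 is named in the submitters' processing notes.

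Each table of 21 libraries was fitted once with edgeR 4.0.16 (R 4.3.3; filterByExpr, TMM, robust quasi-likelihood test), with 1 mean per group and Benjamini-Hochberg adjustment over all genes tested. Intervals are 95%. DESeq2 1.42.0, RLE factors, library totals alone, other low-count filters (none, or at least 1 CPM in 3 libraries), a fit of the compared groups alone, a replicate block, each library left out in turn and the 2 libraries over 8% mitochondrial left out were the alternatives. The fit was tested on data simulated from the second table for 2 comparisons. The simulated libraries were independent and all genes shared 1 spread, so likeness between libraries of a line was not covered. CPM were computed from TMM-scaled totals, without a pseudocount.

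The 9 genes, the 71 other pathway genes and the marker lists were chosen with earlier results of these data known. Pathway genes were named by a rule, in each comparison and role up to 4 called genes with the smallest p and 1 called gene against the majority's direction, and any others were named after their values were seen. Line names in the titles pair the reporter groups: all 30 same-line pairs of totalx2 groups deviated together (correlation 0.126 to 0.593), as did 32 of 63 in naivex2 at over 0.1. Promoter sequences are from RefSeq, matched by symbol for 7 of the 9 genes. Results for some other genes are not reported here.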

Additional observations from a re-analysis of the deposited data

Results flagged for a closer look

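In totalx2 cells the difference between GFP+ and GFP- cells itself differed between day 12 and day 10 for 7 of the 9 genes, by edgeR's test of that contrast. The differences of the log2 fold changes were -2.55 for Inhba, -2.39 for Tgfb3, -2.37 for Tgfb2, -2.28 for Tgfbr2, -2.28 for Tgfbi, -1.92 for Tgfb1 and -1.03 for Ltbp1. The 10 fibroblast markers were all lower in the same contrast, and their part was not tested.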

How the results depend on the processing

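The member calls in day 10 cells against MEF, in totalx2 GFP+ against GFP- cells at day 12 and in the contrast of totalx2 GFP effects kept their direction and their side of the threshold under every alternative run. Of the 9 genes, the number called in naivex2 GFP+ against GFP- cells at day 12 was 0, but 1 with DESeq2, 2 with the compared groups alone and 0 to 1 with a library left out. At day 14 it was 5, but 3 without a low-count filter and 3 to 5 with a library left out, and between days 14 and 12 of the GFP+ cells 4, but 2 without a filter and 2 to 3 with a library left out. The contrast of naivex2 GFP effects had 0, but 1 with the compared groups alone and 1 with the replicate block. In totalx2, day 12 against day 8 had 2, but 4 with the compared groups alone, GFP+ against GFP- at day 10 had 2, but 1 to 3 with a library left out, and day 12 against day 10 of the GFP+ cells had 4, but 3 to 8. Knockout against wild type had 0, but 1 with the replicate block, 1 without libraries over 8% mitochondrial and 0 to 1 with a library left out.

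The number of other pathway genes called moved in naivex2 GFP+ against GFP- cells at day 12 (8, but 15 with the compared groups alone and 5 to 7 with a library left out), between days 14 and 12 of the GFP+ cells (29, but 17 to 27) and in the contrast of naivex2 GFP effects (1, but 4 with DESeq2, 9 with the compared groups alone, 2 with the replicate block, 2 with RLE factors, 3 without libraries over 8% mitochondrial and 1 to 2 with a library left out). In totalx2 it moved at day 10 (13, but 24 with the replicate block) and between days 12 and 10 of the GFP+ cells (28, but 16 to 35), and in the knockout (5, but 3 without a filter, 1 with the compared groups alone and 3 to 7 with a library left out).

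No called log2 fold change reversed; small uncalled ones did. Tgfb1 in naivex2 GFP+ against GFP- cells at day 12 was -0.01 with DESeq2 and -0.0041 with library totals alone. Tgfbr1 at day 14 against day 10 was 0.06 with library totals alone and 0.01 without libraries over 8% mitochondrial, and Tgfbr2 in the knockout was -0.14 without those libraries. With a library left out, the day 12 naivex2 GFP difference ran from -0.14 to 0.09 for Smad7, -0.29 to 0.39 for Tgfb1 and -0.24 to 0.03 for Tgfbi, and its contrast with day 14 from -0.21 to 0.02 for Smad7. In naivex2 iPSC against day 14 GFP+ cells Tgfb2 ran from -0.10 to 0.91 and Tgfb3 from -0.03 to 1.12. Tgfbr1 ran from -0.09 to 0.01 between days 14 and 10 and from -0.01 to 0.23 between days 14 and 12 of the GFP+ cells. In totalx2, Tgfb3 ran from -0.24 to 0.32 at day 12 against day 8, and the day 10 GFP difference from -0.47 to 0.53 for Tgfb3, -0.45 to 0.38 for Tgfbi and -0.21 to 0.49 for Tgfbr2. Tgfbr2 in the knockout ran from -0.23 to 0.16. The cause was not tested.

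Wild-type and knockout clones share only a number, and the block called 2184 genes of all in place of 1619. Calls that the block changed for paired lines stand beside the results, and it changed no other call of the 9 genes in the paired comparisons. With library totals alone the median log2 fold change of all genes was 0.34 in day 10 cells against MEF (0.06 with TMM), 0.31 in iPSC against MEF (0.02 with TMM), 0.12 between days 14 and 10 (0.03 with TMM) and -0.15 in iPSC against totalx2 cells (-0.01 with TMM). Levels of a few CPM, and Inhba before the iPSC stage in naivex2, rest on few reads.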
